A study of Mus musculus with 212 samples.

Results

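The cells described here are 12 single mouse cells, 6 named D5 and 6 named D6, from embryoid bodies, the aggregates in which embryonic stem (ES) cells are left to differentiate. They were taken by cell name from a table that holds 24 cells of D5 to D8, and they are 12 of the 200 cells of a series on the cardiovascular lineages. No measured value was used to choose them. Expression was measured by microfluidic quantitative PCR with 42 TaqMan assays for 33 genes. Values are given as 25 minus the quantification cycle (Ct), in cycles above the detection limit, so that 0 means not detected and 1 cycle is 1 log2 unit at full PCR efficiency. Assays can differ in efficiency, so a level is compared between cells of an assay and never between assays.

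The names and the sample labels differ for these cells. Their titles call them cells of stage E10.5, their source is given as mouse embryo and their cell type as cardiac, whereas the description points to the D5-D8 table, where each cell carries its day. The day of the cell name was used throughout. The D5 and the D6 cells share every label, and no genotype, strain, stem cell line, treatment, sorting marker or culture is named for either day. Each day therefore counted as 1 sample, no difference between the days was tested, and every SD is the spread between cells, which may come from a single culture.

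None of the 12 cells repeated the values of another cell of the series. The negative control gave no signal in any of the 42 assays and the positive control gave signal in 42. Beta-actin (Actb), the housekeeping assay, was detected in all 12 cells, at 12.66 ± 0.46 cycles on D5 (SD, n = 6) and 11.57 ± 1.58 on D6 (SD, n = 6). D6-6 was the lowest cell, at 8.66. With 6 cells, an assay seen in 0 of them still allows a share of up to 45.9% of cells (exact Clopper-Pearson limit, for counting error only). Of the genes that mark this stage, Hand1 was detected in 6 D5 cells and 5 D6 cells, Mesp1 in 3 and 2, and assay 1 of Tnnt2 in 1 and 5. Assay 2 of Isl1 was detected in 0 and 5. The other assay of each gene gave a smaller shift: assay 2 of Tnnt2 was detected in 4 and 5, and assay 1 of Isl1 in 0 and 2.

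Heart muscle arises from mesoderm that briefly carries the transcription factor Mesp1 and the receptors Flk-1 and Pdgfra. Its progenitors then turn on a mutually reinforcing set of transcription factors, among them Isl1, Nkx2-5, Gata4, Mef2c, Tbx5 and Hand2, and only afterwards the genes of the sarcomere, the repeating unit of the contractile apparatus. In embryoid bodies these steps run side by side in neighbouring cells.

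D6 cells had higher means in most contractile and in every cardiac transcription factor assay, and lower means for Hand1, the smooth muscle gene Sm22A, the mesenchymal genes Vim and Fn1 and the pluripotency factor Pou5f1. A difference of at least 1 cycle between the means of the days was called higher or lower. D6 was higher in 19 of the 42 assays (45.2%) and lower in 8 (19%), and 15 differed by less. The medians of these differences were 0.73 cycles over all assays, 1.79 over the 10 contractile assays and 2.94 over the 8 transcription factor assays. In 0 assays did the values of the days stay apart without overlap. For 16 of the called assays the SD between D6 cells was larger than the difference itself.

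Much of this came from a single cell. Without D6-6, 12 assays were higher and 7 lower, and the median over all assays was 0.00. Leaving out D5-6, the D5 cell least like the rest, gave 18 higher and 9 lower, and leaving out both gave 11 and 5. Centring each cell on Actb gave 22 higher and 3 lower and moved the median difference by 0.59 cycles. With the median detected assay as the centre, the counts were 18 and 2, so the split of higher to lower calls depends on the scaling.

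Detection shifted too. Undetected cells enter the means as 0, so the differences of means partly restate this shift. D5 cells detected 13 to 16 assays (14.7 ± 1.21, SD, n = 6) and D6 cells 16 to 29 (21.5 ± 4.76, SD, n = 6). The D6 counts were 17, 16, 21, 24, 22 and 29 in D6-1 to D6-6, so only D6-2 did not exceed the highest D5 count of 16. Of the 42 assays, 13 were detected on D6 alone, 1 on D5 alone and 4 on neither day. Detection was at least 50 percentage points more frequent on D6 in 6 assays, namely assay 1 of Tnnt2, assay 1 of Gata4, both of Mef2C, Tbx5 and assay 2 of Isl1, and in 0 assays on D5. Where D5 gave no signal, at least 1 D6 cell gave none either. Values end at the detection limit on both days, so these differences are neither lower nor upper limits.

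**Figure D1:**
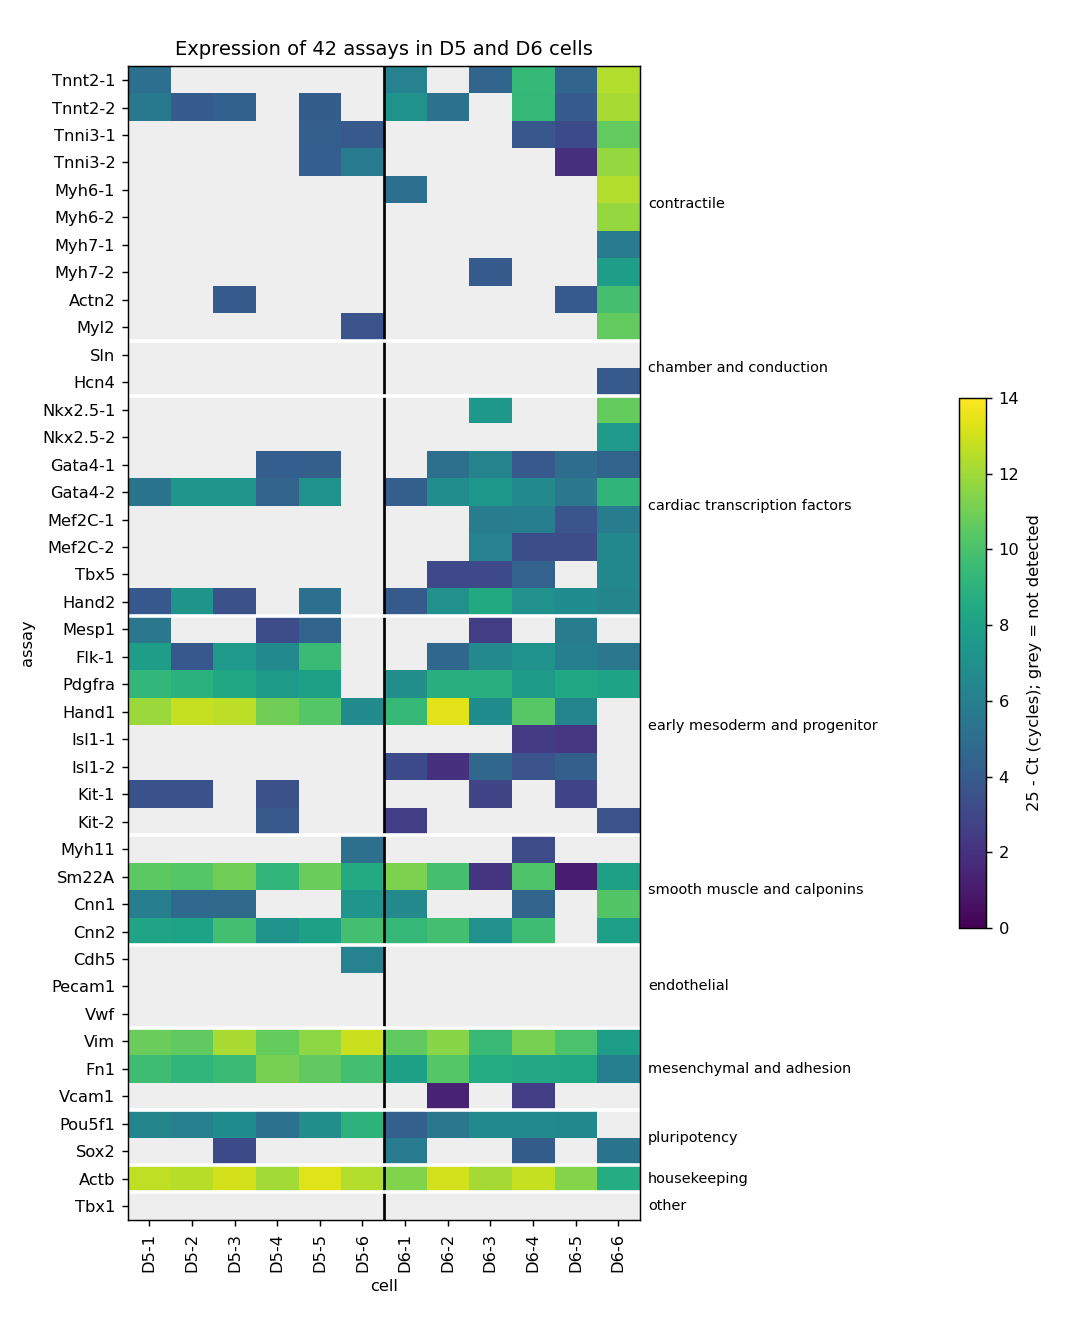
Expression (25 minus Ct, in cycles, colour scale; grey is not detected) of the 42 assays (rows, by role) in the 6 D5 cells and the 6 D6 cells (columns). D6-6 shows signal in all 10 contractile assays, and both Mef2C assays are grey in all D5 cells and coloured in 4 D6 cells.

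The contractile genes encode parts of the sarcomere: Tnnt2 and Tnni3 are cardiac troponins T and I of the thin filament, Myh6 and Myh7 the alpha and beta myosin heavy chains of the thick filament, Myl2 the ventricular regulatory light chain, and Actn2 the alpha-actinin of the Z-disc. For Tnnt2, Myh6, Tnni3 and Myh7 both assays were highest in D6-6 among the 12 cells. The DNA before a listed transcript start is shown for the first 3 of these genes. Each line gives the 250 bases before the start in the RefSeq promoter table (GRCm38.p6), read 5′ to 3′ on the strand of the gene. Tnnt2 lies at chr1:135836084-135836333 on the plus strand, with the first of 2 listed starts used. Myh6 lies at chr14:54966608-54966857 and Tnni3 at chr7:4522529-4522778, both on the minus strand. These starts are not the outer ends of the annotated genes. The Myh6 gene reaches to base 54968017, so its whole stretch lies inside the gene, and most of the Tnni3 stretch lies inside a gene that reaches to 4522718. The Tnnt2 gene begins at 135836315, so only the last bases of its stretch lie inside. Capitals mark matches to the motif cores searched.
Tnnt2: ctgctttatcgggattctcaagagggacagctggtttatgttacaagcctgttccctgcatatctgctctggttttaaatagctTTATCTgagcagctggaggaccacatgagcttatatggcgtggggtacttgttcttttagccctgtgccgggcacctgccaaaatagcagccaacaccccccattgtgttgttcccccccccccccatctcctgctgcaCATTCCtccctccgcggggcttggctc
Myh6: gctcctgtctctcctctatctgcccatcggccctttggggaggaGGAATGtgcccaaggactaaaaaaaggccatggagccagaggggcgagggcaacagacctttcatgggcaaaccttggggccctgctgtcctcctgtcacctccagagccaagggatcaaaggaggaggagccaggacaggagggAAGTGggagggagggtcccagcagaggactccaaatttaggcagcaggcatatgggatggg
Tnni3: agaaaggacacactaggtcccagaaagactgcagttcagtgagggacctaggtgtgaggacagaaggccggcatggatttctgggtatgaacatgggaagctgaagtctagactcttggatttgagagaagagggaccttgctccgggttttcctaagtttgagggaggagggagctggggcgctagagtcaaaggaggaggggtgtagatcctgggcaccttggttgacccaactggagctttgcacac
Motif cores were searched on both strands: AGATAA for GATA factors, AAGTG for Nkx2-5, CATTCC for the MCAT element and TATAAA for the TATA box. Tnnt2 held AGATAA on the opposite strand, at bases 85 to 90 of the line, and CATTCC at 27 to 22 bases before the start. In the Myh6 stretch AAGTG stood 61 to 57 bases before the start and CATTCC on the opposite strand at bases 45 to 50 of the line. The Tnni3 stretch held none of these letters. Such matches are common: of 32851 promoters cut the same way, 9.99% held AGATAA, 40.7% AAGTG, 12.6% CATTCC and 12.4% TATAAA. The matches describe these letters only.

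Tnnt2, among the first sarcomere genes switched on in the heart, had the largest difference of the 42 assays. Assay 1 read 5.12 cycles in D5-1 and 0 in the other 5 D5 cells, against 6.20, 0, 4.57, 9.39, 4.59 and 12.40 in D6-1 to D6-6. The means were 0.85 ± 2.09 (SD, n = 6) and 6.19 ± 4.30 (SD, n = 6), a difference of 5.34 cycles, or 4.10 without D6-6. Assay 2 of the same gene gave signal in more D5 cells. It read 5.64, 4.08, 4.35, 0, 4.15 and 0 in D5-1 to D5-6 and 7.12, 5.25, 0, 9.31, 4.09 and 12.16 in D6-1 to D6-6. Its difference was 3.28 cycles, and 2.12 without D6-6. In both assays D6-6 was highest and D6-4 next, and every D6 cell detected Tnnt2 with at least 1 assay. The low signals were not shared by all cells of the series: in the ES reference cells of the same study either assay was detected in 0 of 5 cells, which allows up to 52.2%.

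Myh6, the adult-type fast myosin of the mouse heart, was not detected in any D5 cell. Assay 1 read 5.11 in D6-1 and 12.40 in D6-6 and 0 elsewhere, and assay 2 read 11.79 in D6-6 alone. The mean differences were 2.92 and 1.97 cycles, and 1.02 and 0.00 without D6-6. Myh7, its fetal counterpart, was likewise silent on D5. Assay 2 read 4.07 in D6-3 and 7.81 in D6-6 (a difference of 1.98 cycles, and 0.81 without D6-6), and assay 1 read 5.74 in D6-6 alone, which left its difference of 0.96 just short of a call.

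Tnni3, Actn2 and Myl2 gave their highest values in D6-6 and weaker signals in a few other cells, for Myl2 in D5-6 alone. Assay 1 of Tnni3 read 4.24 and 3.88 in D5-5 and D5-6, and 3.81, 3.16 and 10.61 in D6-4, D6-5 and D6-6. The difference was 1.58 cycles, and 0.04 without D6-6. Assay 2 read 4.17 and 5.76 in D5-5 and D5-6 and 1.93 and 11.80 in D6-5 and D6-6, and its difference of 0.63 became -1.27 without D6-6. Actn2 read 4.10 in D5-3, 3.97 in D6-5 and 9.86 in D6-6, and its difference of 1.62 became 0.11. Myl2 read 3.59 in D5-6 and 10.63 in D6-6, and its difference of 1.17 became -0.60 without that cell and 1.77 without D5-6.

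In all, 8 of the 10 contractile assays were higher on D6 and 0 lower. Over all 42 assays, 19 were higher (45.2%) and 8 lower (19%). Without D6-6, 3 contractile assays were higher (both of Tnnt2 and assay 1 of Myh6) and 1 was lower (assay 2 of Tnni3). Over all 42 assays the counts without that cell were 12 and 7. D5 cells gave 11 contractile detections in 60 cell-assay combinations (18.3%), between 3.59 and 5.76 cycles. D6-1 to D6-5 gave 14 in 50 (28%), between 1.93 and 9.39. D6-6 gave 10 in 10, between 5.74 and 12.40. For the 4 contractile genes with 2 assays, both assays gave signal in 3 of 6 gene-and-cell detections on D5, in 4 of 9 in D6-1 to D6-5 and in 4 of 4 in D6-6, so many of the weak signals rested on 1 assay. Of the chamber and conduction genes, Hcn4, a pacemaker channel, read 4.04 in D6-6 alone, and Sln, an atrial regulator of the calcium pump, was not detected on either day.

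**Figure D2:**
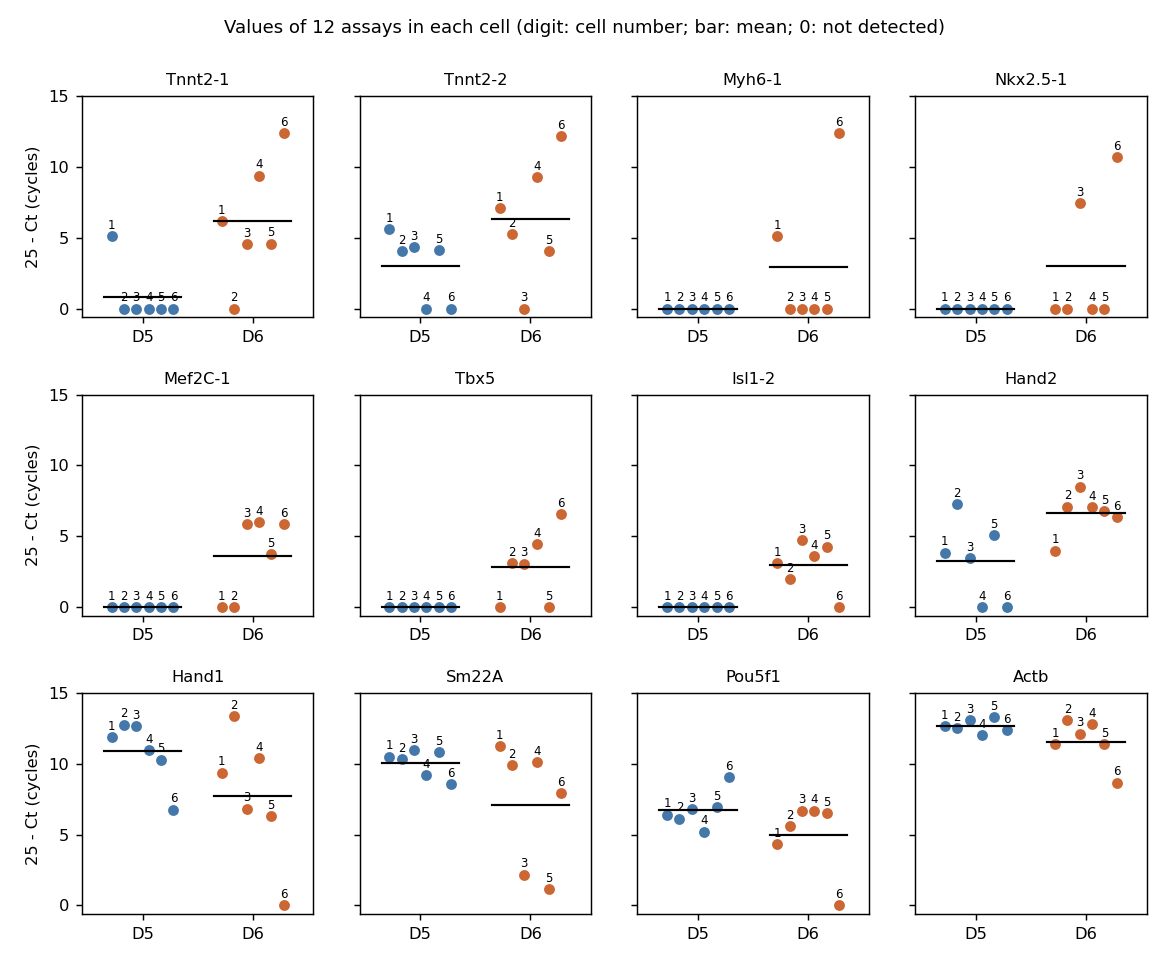
Expression (25 minus Ct, in cycles) of 12 assays in each D5 and D6 cell, with each point numbered by its cell and a line at the mean of each day; 0 is not detected. D6-6 is the highest point for Tnnt2 and the lowest for Hand1, while the D6 points of Mef2C, Tbx5 and Isl1 are spread over several cells.

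All 8 assays of the 5 cardiac transcription factors were higher on D6, with 6 still so without D6-6. Of all 42 assays, 19 and 12 were. Both Gata4 assays and Hand2, which had signal on D5, kept their direction under both centrings. Both centres were themselves lower on D6: Actb differed by -1.10 cycles, and the median detected assay averaged 7.35 on D5 and 6.59 on D6. Centring thus raises detected D6 values against D5, so the kept direction says little about these assays. The other 5 assays had no D5 signal. Centring set undetected values to the lowest centred value, so the direction of these 5 could not turn. Mef2C, a MADS-box activator of muscle genes, was not detected in any D5 cell. Its assay 1 read 5.85, 6.0, 3.72 and 5.87 in D6-3, D6-4, D6-5 and D6-6, and assay 2 read 6.22, 3.37, 3.31 and 6.51 in the same cells. The 2 assays agreed on which cells were positive in 12 of 12 cells. The differences were 3.57 and 3.24 cycles, and 3.11 and 2.58 without D6-6.

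Tbx5, a T-box factor of the first heart field and the atria, was also silent in D5 cells. It read 3.08, 3.07, 4.43 and 6.55 in D6-2, D6-3, D6-4 and D6-6, a difference of 2.85 cycles, and 2.12 without D6-6. Nkx2-5, the homeobox factor that marks committed cardiac cells, was seen in fewer. Assay 1 read 7.48 in D6-3 and 10.69 in D6-6, and assay 2 read 7.59 in D6-6 alone. Their differences of 3.03 and 1.26 became 1.5 and 0.00 without D6-6, and the signal in D6-3 rested on assay 1.

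Hand2 and Gata4 were already present on D5. Hand2, a basic helix-loop-helix factor of the developing heart, read 3.85, 7.25, 3.48, 0, 5.09 and 0 in D5-1 to D5-6 and 3.99, 7.08, 8.50, 7.06, 6.80 and 6.35 in D6-1 to D6-6. It was thus detected in every D6 cell, with less spread than on D5 (SD 1.48 against 2.86), and its difference of 3.35 cycles was 3.41 without D6-6. Gata4, a zinc-finger factor of cardiac and endodermal cells, was detected by assay 1 in 2 D5 cells at 4.19 and 4.23, and in 5 D6 cells at 3.93 to 6.28, a difference of 2.75 cycles. Assay 2 was detected in 5 D5 cells and all D6 cells, with a highest D5 value of 7.30 and a highest D6 value of 9.16. Its difference of 1.40 became 0.90 without D6-6 and 0.35 without D5-6, the D5 cell without a Gata4 signal.

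The genes of early mesoderm and of progenitors differed in both directions. Hand1, a basic helix-loop-helix factor of lateral and extraembryonic mesoderm and of the early heart, read 11.88, 12.76, 12.63, 10.96, 10.30 and 6.77 in D5-1 to D5-6. On D6 it read 9.37, 13.34, 6.83, 10.38, 6.31 and 0. D6-2 was thus the highest of the 12 cells and D6-6 the lowest. The means were 10.88 ± 2.23 and 7.70 ± 4.56 (SD, n = 6 each), a difference of -3.18 cycles, which was -1.64 without D6-6, -4.0 without D5-6 and -2.59 when centred on Actb.

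Isl1, the LIM-homeobox factor of second heart field progenitors, gave no signal in D5 cells. Assay 2 read 3.12, 1.99, 4.74, 3.58 and 4.26 in D6-1 to D6-5 and 0 in D6-6, a difference of 2.95 cycles (D6 mean 2.95 ± 1.73, SD, n = 6), and 3.54 without D6-6. This was the reverse of the contractile pattern, since D6-6 was the D6 cell that lacked it. Assay 1 gave signal only in D6-4 at 2.51 and D6-5 at 2.19. With a detection limit of Ct 23, which takes 2 cycles from every detected value, the assay 2 difference was 1.28 cycles, and D6-2 lost its signal.

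Mesp1, the earliest of these marks, read 5.53, 3.29 and 4.51 in D5-1, D5-4 and D5-5 and 2.54 and 5.91 in D6-3 and D6-5. Its means were 2.22 and 1.41, a difference of -0.81 cycles. Flk-1 (Kdr), the VEGF receptor of mesodermal and endothelial cells, was detected in 5 cells of each day, with means of 5.89 and 5.0. The difference was -0.89 cycles, and -2.07 without D5-6, which lacked it. Pdgfra, a growth factor receptor of paraxial and cardiogenic mesoderm, read 7.64 to 9.26 in D5-1 to D5-5, 0 in D5-6 and 6.92 to 8.80 in the D6 cells. Its call as higher on D6, by 1.07 cycles, rested on D5-6: without that cell the difference was -0.33. Kit, a stem cell factor receptor, had means of 1.76 and 0.98 in assay 1 and 0.65 and 1.02 in assay 2, and the assays were positive together in 1 of the 12 cells.

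Mesoderm and sarcomere genes were found in the same cells. Of the 4 genes Mesp1, Flk-1, Pdgfra and Hand1, D6-1 to D6-6 detected 2, 3, 4, 3, 4 and 2, and the D5 cells 1 to 4. D6-3 and D6-5 held all 4 together with Mef2C, Isl1 and Tnnt2, although in D6-3 Isl1 rested on assay 2 and Tnnt2 on assay 1. Even D6-6 kept Flk-1 at 5.52 and Pdgfra at 8.10, within the range of the other D6 cells that detected them.

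**Figure D3:**
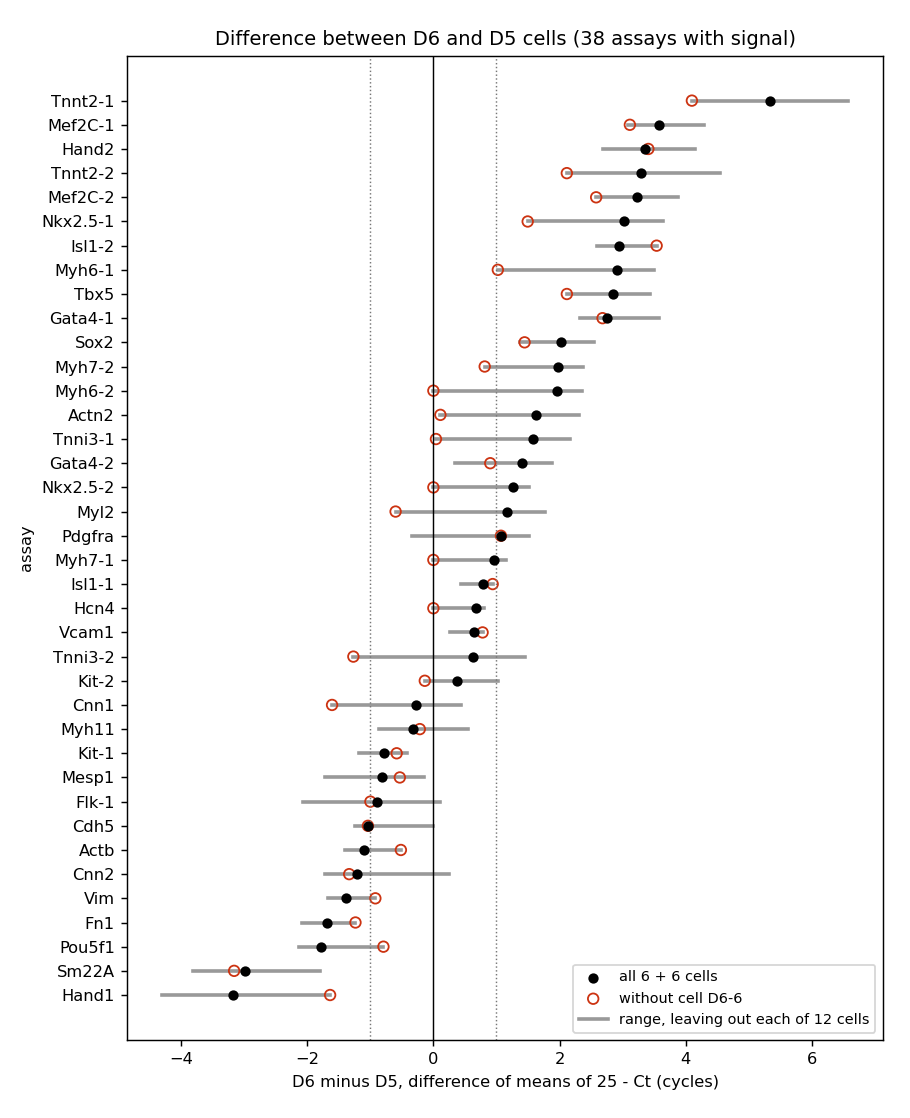
Difference of the D6 mean and the D5 mean (x axis, in cycles) for the 38 assays with signal on either day; filled points use all cells, open points leave out D6-6, and grey bars span the values with each of the 12 cells left out. Mef2C, Tbx5, Hand2 and Isl1 assay 2 stay at least 2.12 cycles higher without D6-6, whereas assay 2 of Myh6, Actn2 and assay 1 of Tnni3 lie within 0.11 cycles of 0.

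Among smooth muscle and calponin genes, 2 of 4 assays were lower on D6 and 0 higher, against 8 lower and 19 higher of all 42. Sm22A (transgelin), an actin-binding protein of smooth muscle that embryonic heart also makes, read 8.58 to 10.97 in the D5 cells, with D5-6 lowest. On D6 it read 11.23, 9.88, 2.17, 10.14, 1.13 and 7.94, so D6-3 and D6-5 lay far below the D5 range while D6-1 was the highest of all. The difference was -2.99 cycles, -3.16 without D6-6, -1.79 without D6-5 and -1.89 when centred on Actb. Cnn2 (calponin 2) read 7.21 to 9.82 in D5 cells and 9.33, 9.83, 7.11, 9.64, 0 and 7.91 in D6-1 to D6-6. Its difference of -1.21 cycles rested on D6-5, without which it was 0.25. Cnn1 (calponin 1) had means of 3.82 and 3.55, with its highest value, 10.23, in D6-6; without that cell the difference of -0.27 became -1.61. Myh11, the smooth muscle myosin, read 5.19 in D5-6 and 3.25 in D6-4 and was otherwise not detected.

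Signals of endothelium were almost lacking. Cdh5, the cadherin of endothelial junctions, read 6.23 in D5-6 alone, which gave its difference of -1.04 cycles and 0.00 without that cell. Pecam1 and Vwf, a junction protein and a clotting factor of the same cells, were not detected on either day, nor was the pharyngeal T-box gene Tbx1.

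Vim and Fn1, an intermediate filament and a matrix protein of mesenchymal cells, were detected in all 12 cells and were lower on D6. Vim read 10.56 to 12.89 on D5 (median 11.21) and 7.80 to 11.52 on D6 (median 10.33), a difference of -1.38 cycles. Fn1 read 9.20 to 11.13 (median 9.73) and 6.04 to 10.29 (median 8.43), a difference of -1.69. D6-6 was lowest in both. Without it the differences were -0.92 and -1.23, and centred on Actb they were -0.28 and -0.59, because Actb itself was lower by 1.10 cycles on D6, or by 0.51 without D6-6. Vcam1, a cell adhesion molecule, read 1.36 in D6-2 and 2.54 in D6-4.

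The pluripotency factors diverged. Pou5f1 (Oct4) read 6.41, 6.12, 6.80, 5.22, 6.92 and 9.04 in D5-1 to D5-6 and 4.31, 5.58, 6.69, 6.70, 6.52 and 0 in D6-1 to D6-6. Its difference of -1.78 cycles became -0.79 without D6-6. Sox2 read 3.14 in D5-3 and 5.73, 4.11 and 5.39 in D6-1, D6-4 and D6-6, a difference of 2.02 cycles, and 1.45 without D6-6. The reference cells named ES had a Pou5f1 mean of 8.99 ± 0.65 (SD, n = 5), and those named CPC 5.06 ± 1.79 (SD, n = 5). Those named CM averaged 5.33 ± 0.22 and those named SMC 7.14 ± 0.60 (SD, n = 5 each). Every reference type gave signal in 5 of 5 cells, so a Pou5f1 signal was not limited to stem cells in this study.

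Cell by cell, contractile and transcription factor genes were detected to very different extents on D6. Over the 10 contractile assays, the D5 cells detected 2, 1, 2, 0, 3 and 3, and D6-1 to D6-6 detected 3, 1, 2, 3, 5 and 10. By gene, D6-1 to D6-6 detected 2, 1, 2, 2, 3 and 6 of the 6 contractile genes. Over the 8 transcription factor assays the counts were 2, 2, 2, 2, 3 and 0 in D5-1 to D5-6 and 2, 4, 7, 6, 5 and 8 in D6-1 to D6-6. The order of the D6 cells thus differed between the lists: D6-3 came second in transcription factors but had only Tnnt2 and Myh7 among contractile genes, and D6-1 had Tnnt2 and Myh6 without Nkx2-5, Mef2C or Tbx5. Some of these signals rested on a single assay of the gene: assay 1 of Tnnt2 and assay 2 of Myh7 in D6-3, and assay 1 of Myh6 in D6-1.

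D6-6 detected every contractile gene measured. It was above every other D6 cell in 18 assays and below every other in 6, namely Hand1, Isl1 assay 2, Vim, Fn1, Pou5f1 and Actb. It was the only D6 cell to detect 5 assays (assay 2 of Myh6, assay 1 of Myh7, Myl2, Hcn4 and assay 2 of Nkx2-5) and the only one without Hand1, Isl1 assay 2 and Pou5f1. All 10 of its contractile values were at or above the mean of the D8 cells, and 6 lay above every D8 cell. Its mean over the 10 assays was 10.52 cycles, as was that of D8-1. The D8 means count undetected cells as 0. For assay 1 of Myh7, its 5.74 was below the mean of 6.05 in the D8 cells that detected it. Its Actb, at 8.66, was the lowest of the 12 cells, and the D7 and D8 cells averaged 8.19 ± 1.89 and 7.09 ± 1.59 (SD, n = 6 each). The part of Actb or of RNA content in its values was not tested.

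The other D6 cells stood closer to D5. Correlations over the 41 assays other than Actb are given as descriptions, since assays are not independent. D6-1 to D6-6 correlated with the D5 mean at r = 0.815, 0.923, 0.622, 0.797, 0.638 and 0.071, and with the D8 mean at 0.265, 0.077, 0.111, 0.190, 0.071 and 0.921. With the mean of the reference cells named CPC the D6 cells gave r = 0.826, 0.911, 0.650, 0.751, 0.583 and -0.022, and the D5 cells 0.870, 0.940, 0.913, 0.891, 0.839 and 0.652. With those named CM, D6-6 gave 0.722 and the other 11 cells at most 0.097. The closest of the 6 reference types was CPC for 10 cells, CM for D6-6 and SMC for D5-6. In D5-6, SMC (0.717), FB (0.683) and CPC (0.652) were near each other and Spearman correlation put FB first. FB also came near CPC in D6-3 (0.614 against 0.650) and in D6-5 (0.507 against 0.583). In both cells CPC stayed first by Spearman correlation and by Euclidean distance.

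**Figure D4:**
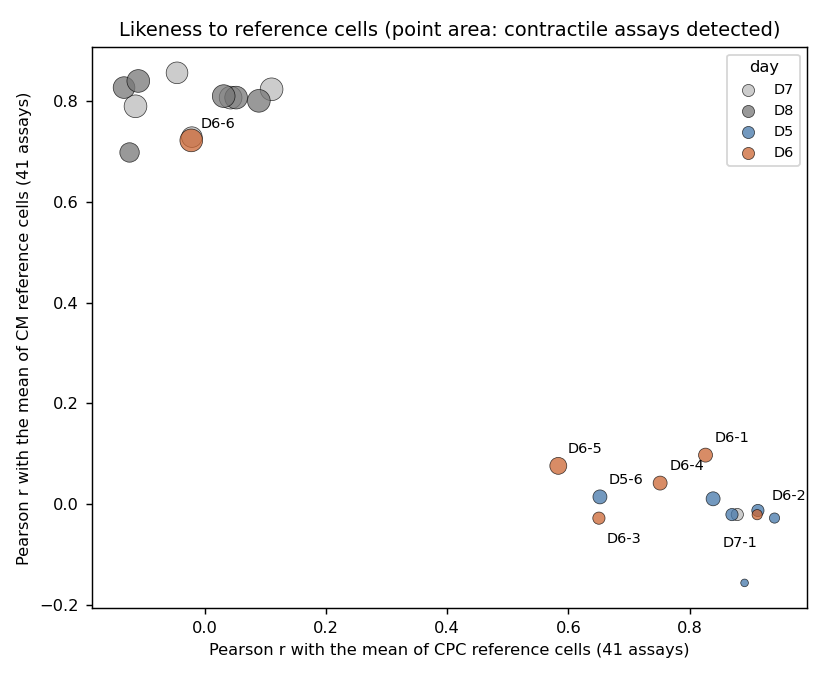
Pearson r over 41 assays of each D5 to D8 cell with the mean of the CPC reference cells (x axis) and of the CM reference cells (y axis); point area grows with the number of contractile assays detected. D6-6 lies among the D7 and D8 cells at the upper left, and the other D6 cells lie with the D5 cells and D7-1 at the lower right.

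D6 cells differed more among themselves than D5 cells did. The Euclidean distance between pairs of cells over the assays had a median of 12.6 cycles on D5 (8.62 to 21.5, 15 pairs) and 19.8 on D6 (14.8 to 41.9, 15 pairs), and without D6-6 it was 18.99 (14.8 to 23.5, 10 pairs). Without D5-6 the longest D5 distance was 12.9, below the shortest distance on D6. The SD was larger on D6 in 30 assays and on D5 in 8, and without D6-6 in 21 and 13. These counts partly follow from detection. In the 13 assays detected on D6 alone the D5 SD is 0, and in the 1 detected on D5 alone the D6 SD is 0. By distance, D6 cells other than D6-6 were also further apart than most D5 cells. Distance depends on detection as well, since undetected values counted as 0. The 2 cells of a pair differed in detection in 2 to 13 assays on D5. On D6 without D6-6 they differed in 8 to 15. The part of detection in the distances was not tested. Pairs share cells, and the difference in distance between the days was not tested.

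D5-6 stood apart on D5. It was above the other D5 cells in 7 assays and below them in 5, it alone detected Myl2, Myh11 and Cdh5, and it alone lacked Flk-1, Pdgfra and Gata4 assay 2. It also had the highest Pou5f1 and Vim of the 12 cells and detected 0 transcription factor assays. The signals of smooth muscle, endothelial and contractile genes were in this cell together; what lies behind that was not tested.

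The later days place these values. All 10 contractile assays were at least 1 cycle higher on D7 than on D6, and over all assays 15 were higher and 10 lower. D7-2 to D7-6 detected 8 to 10 contractile assays and the D8 cells 7 to 10, as D6-6 did. D7-1 detected 2, and gave r = 0.879 with the CPC mean. Assay 1 of Tnnt2 averaged 10.33 ± 2.33 on D7 and 11.18 ± 1.09 on D8 (SD, n = 6 each). Isl1 assay 2, at 2.95 on D6, averaged 2.43 ± 1.92 and 1.65 ± 2.57, and Mesp1 was detected in 0 cells of either later day. The transcription factors without signal on D5 differed in their later levels. Assay 1 of Mef2C averaged 3.57 ± 2.90 on D6, 4.18 ± 2.20 on D7 and 4.24 ± 1.03 on D8 (SD, n = 6 each). Assay 1 of Nkx2-5 averaged 3.03 ± 4.80, 7.78 ± 3.82 and 9.20 ± 1.16, and Tbx5 2.85 ± 2.55, 5.18 ± 2.05 and 5.15 ± 2.60 on the same days.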

How the data were processed

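The labels' protocols describe sorting of 1 cell per well, lysis with one-step reverse transcription, TaqMan pre-amplification and reading on a Fluidigm chip. From this the authors deposited Ct values, which are lower with more template; 25 is the value of every assay that gave no signal. Not given in the sources used here were the threshold, the number of cycles and any filter on cells. No correction for Actb was applied in the deposited values.

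Cells were matched to days by their names in the table, and 0 per-sample columns were left unmapped. Means, SDs, detection shares and differences were computed with Python 3.11.15, numpy 2.4.6, pandas 2.3.3 and scipy 1.17.1. Undetected values counted as 0. The computation of differences was checked on simulated data. All 42 assays are described, in role groups. Assays differing by at least 1 cycle, or by 50 percentage points in detection, are given by cell or by ranges, highest values, medians or means. The members, lists and rules were chosen with earlier results of these data known. Calponin 1 and 2 were read as Cnn1 and Cnn2, Flk-1 as Kdr, and Sm22A as Tagln. Sequences before transcript starts come from RefSeq (GRCm38.p6). The 17 alternatives comprised centring, a stricter detection limit, medians, detecting cells only and leaving out each cell. Precision is limited by 6 cells per day.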

Additional observations from a re-analysis of the deposited data

Results flagged for a closer look

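In 20 of the 62 combinations of day and assay with any range, the highest or lowest cell stood apart from the other 5 of its day by more than Dixon’s 95% critical value allows. Of the 20, 13 are assays with a single detecting cell, where the gap is the whole range and the rule marks the cell in every case. The usual chance rate of 1 in 20 groups holds for normally distributed values. It does not apply here, because undetected cells share the value of the detection limit. The count of 20 was therefore not compared with chance, and the marked values are listed as a description.

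On D6, 8 of these values belonged to D6-6. They were 10.61 and 11.80 for the 2 Tnni3 assays, 11.79 for assay 2 of Myh6, 5.74 for assay 1 of Myh7, 10.63 for Myl2, 4.04 for Hcn4, 7.59 for assay 2 of Nkx2-5 (Nkx2.5-2) and 0 for Pou5f1. D6-1 stood apart in not detecting Gata4 assay 1 (0) and Flk-1 (0). Cnn2 at 0 in D6-5 and Myh11 at 3.25 in D6-4 were the others.

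On D5, 4 belonged to D5-6, with 6.23 for Cdh5, 5.19 for Myh11, 3.59 for Myl2 and 0 for Pdgfra. D5-3 had Actn2 at 4.10 and Sox2 at 3.14. Assay 1 of Tnnt2 at 5.12 in D5-1 and assay 2 of Kit at 3.89 in D5-4 were each the only signal of their assay on that day.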

How the results depend on the processing

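With 6 cells per day and no replicate culture, no alternative measures the difference between days apart from that between cells. The count of 19 higher assays was 10 with medians, 3 with means over detecting cells (at least 3 per day, which 13 assays have) and 12 to 21 with 1 cell left out. The count of 8 lower assays was 3 when centred on Actb and 2 when centred on the median detected assay. The 8 higher contractile assays were 3 with medians, 1 with detecting cells only and 3 to 10 with 1 cell left out. With detecting cells only, 16 of the called assays gave no value. In 3 called assays the direction changed: Myl2, between -0.60 and 1.77 with 1 cell left out; Pdgfra, -0.33 with detecting cells only and between -0.33 and 1.52 with 1 cell left out; and Cnn2, 0.48 with medians, 0.25 with detecting cells only and between -1.72 and 0.25 with 1 cell left out. Myl2 turned without D6-6, Pdgfra without D5-6 and Cnn2 without D6-5; Pdgfra also came within 1 cycle without D6-2 or D6-3, Cnn2 without D5-3 or D5-6 and Actb without D5-5. Beyond the cell left out the cause was not tested. At a stricter limit of Ct 23, 17 assays were higher and 6 lower. The nearest reference type was the same by Spearman correlation in 11 of 12 cells and by Euclidean distance in 12.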
